A study of Mus musculus with 12 samples.

Results

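The genes described here are 9 genes of the urea cycle and of nitrogen handling in the liver, Cps1, Otc, Ass1, Asl, Nags, Slc25a15, Glul, Gls2 and Slc7a2. They were taken by their symbols from a count table of 54532 mouse genes, and all 9 were found and measured in 12 libraries. RNA was sequenced from liver and subcutaneous fat of male mice that received, at 10 weeks of age, a tail vein injection of an adeno-associated virus of serotype 8 (AAV8), either a null vector (null) or one carrying human HKDC1 (hHKDC1 OE). The tissues were taken 16 weeks later from mice on a low-fat diet, which both groups received, with 3 libraries for each tissue and vector. The promoter in the vector, that of thyroxine-binding globulin, is active in hepatocytes, so subcutaneous fat was not itself the target. HKDC1 is a hexokinase-domain protein, and the study asked what its lasting overexpression in hepatocytes does to liver metabolism.

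The urea cycle turns ammonia into urea, and the complete cycle runs almost only in hepatocytes, most strongly in those near the portal vein. Its first steps take place in mitochondria and the later ones in the cytosol, with ornithine carried back into the mitochondrion at the end of each turn. Hepatocytes around the central vein catch the ammonia that escapes the cycle and fix it into glutamine, which many other tissues, fat and muscle among them, also make.

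Each library held between 15496019 and 19954971 counts. Values below are CPM, a gene's count scaled to a common library size by the trimmed mean of M-values within each tissue. Titles and the treatment label place replicates 2 and 3 of hHKDC1 OE in each tissue among the overexpressing samples, whereas their descriptions call them knockouts, and they were kept in the hHKDC1 OE group. Human HKDC1 was not analysed here, and mouse Hkdc1, at 0 to 8 counts in every library, does not check the transgene. The study describes the fat libraries as coming from separate mice. For the liver libraries no source used here states this, so p-values there measure the spread between libraries, which may be partly technical. The tissue labels were checked against marker genes. The summed CPM of 9 hepatocyte markers, among them Alb, was 110963 to 113342 in null liver and 70945 to 94863 in hHKDC1 OE liver. That of 8 adipocyte markers was 20496 to 30599 in fat and 19.5 to 47.5 in liver. The same 9 hepatocyte markers were present in every fat library, with sums of 2547, 2664 and 7780 CPM in null and of 2113, 761 and 1154 CPM in hHKDC1 OE.

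Levels of different genes were compared in FPKM, which divides by gene length, in null liver first. Ass1, which joins citrulline and aspartate in the cytosol, had the highest level at 2089 ± 632 FPKM (SD, n = 3). Cps1 followed at 1010 ± 307 FPKM, Glul stood at 505 ± 14.7, Asl at 250 ± 27.1, Gls2 at 153 ± 44.7, Otc at 150 ± 39.8, Slc7a2 at 123 ± 9.47, Slc25a15 at 86.2 ± 19.4 and Nags at 28.0 ± 1.25 FPKM. Gls2, Otc and Slc7a2 formed a run of overlapping neighbours, and the remaining steps in this order, from Nags up to Ass1, were free of overlap. In hHKDC1 OE liver Ass1 was again first, at 1694 ± 555 FPKM, and Nags last, at 30.8 ± 5.57 FPKM. The order differed at Slc7a2, which stood at 68.9 ± 14.0 FPKM, below Slc25a15 at 72.8 ± 4.06 FPKM, with overlapping libraries.

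In liver the groups overlapped for each enzyme of the cycle measured here, and the gene furthest apart between them was the arginine transporter gene Slc7a2, with lower values in hHKDC1 OE. None of the 9 genes had an adjusted p under 0.05 in edgeR's quasi-likelihood test (0 of 9, against 0% of the 13351 genes tested). At an unadjusted p under 0.05, 1 of 9 was lower (3.05% of all genes), and DESeq2 called the same 1 gene, Slc7a2, lower (0.36%). The log2 change of hHKDC1 OE against null was below 0 for 8 of the 9, with a median of -0.20, where the median of all genes was 0.01. The median of the 9 was -0.02 without null replicate 1, the liver library with the highest values for 7 of them, among them Cps1 and Otc.

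**Figure D1:**
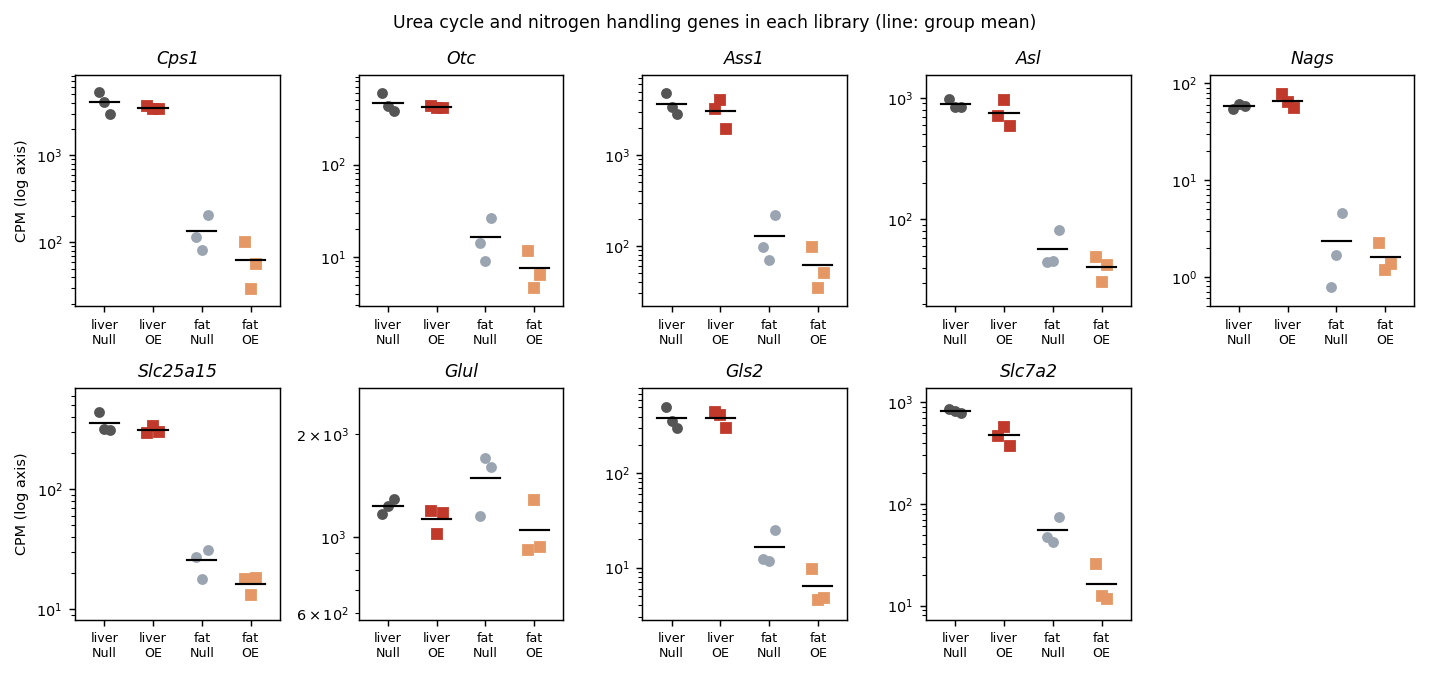
CPM of each of the 9 genes on a log axis, with 1 point per library for null (circles) and hHKDC1 OE (squares) in liver and fat, and a line at each group mean. In liver the groups are apart for Slc7a2 only. In fat 8 of the genes lie far below their liver points, and Glul does not.

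The mitochondrial steps came first. Nags (chr11:102145513-102149477, plus strand, GRCm38) encodes N-acetylglutamate synthase, which makes the activator that Cps1 needs. Its CPM was 54.8, 61.7 and 58.3 in null and 77.2, 64.1 and 55.1 in hHKDC1 OE, with overlapping groups, and it was the only one of the 9 with a change above 0 (log2 change 0.17, SE 0.16, edgeR adjusted p = 0.888). The change of Nags was 0.03 without replicate 1 of hHKDC1 OE and 0.28 without replicate 3. Cps1 (chr1:67123026-67231259, plus strand), carbamoyl-phosphate synthetase, brings ammonia into the cycle. It stood at 5242, 4094 and 2947 CPM in null and 3659, 3358 and 3395 CPM in hHKDC1 OE. The null libraries thus spread around the narrow hHKDC1 OE values, and the difference of -0.24 (SE 0.23) had an edgeR adjusted p of 0.894. Leaving out null replicate 1 gave -0.02 for Cps1, and leaving out null replicate 3 gave -0.43.

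Otc (chrX:10252305-10321024, plus strand), which condenses carbamoyl phosphate with ornithine, followed the same pattern. Its CPM was 591, 429 and 378 in null against 428, 413 and 406 in hHKDC1 OE. The log2 change of Otc was -0.16 (SE 0.19, edgeR adjusted p = 0.905), with 0.045 when null replicate 1 was left out and -0.29 when null replicate 3 was. Slc25a15 (chr8:22375551-22398597, minus strand) encodes the ornithine carrier of the inner mitochondrial membrane. It had 436, 316 and 311 CPM in null and 291, 333 and 299 CPM in hHKDC1 OE, which overlap (log2 change -0.20, SE 0.17, edgeR adjusted p = 0.871), and without null replicate 1 the change was -0.03.

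Of the cytosolic enzymes, Ass1 (chr2:31470207-31520672, plus strand) varied most among the hHKDC1 OE livers. Ass1 stood at 4816, 3380 and 2845 CPM in null and at 3250, 4001 and 1960 CPM in hHKDC1 OE. Replicates 1 and 2 of hHKDC1 OE were within the null range and replicate 3 was the lowest of the 6. Asl (chr5:130011258-130029247, minus strand), which splits argininosuccinate into arginine and fumarate, had 969, 838 and 844 CPM in null against 710, 961 and 585 CPM. For Asl replicate 2 of hHKDC1 OE was again the highest of its group and replicate 3 the lowest. The log2 changes were -0.26 (SE 0.29) for Ass1 and -0.23 (SE 0.20) for Asl, with edgeR adjusted p of 0.903 and 0.874. Without replicate 2 of hHKDC1 OE they were -0.50 for Ass1 and -0.45 for Asl, and without replicate 3 they were -0.02 and -0.08. Without null replicate 1 that of Ass1 was -0.02, and without null replicate 3 it was -0.42.

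Slc7a2 (chr8:40862396-40922308, plus strand) encodes CAT2, a carrier of cationic amino acids through which hepatocytes can take up arginine, lysine and ornithine. Its CPM was 867, 813 and 782 in null liver and 470, 574 and 372 in hHKDC1 OE liver. The highest hHKDC1 OE library lay below the lowest null library, as it did for 6.18% of the genes tested. In the fit Slc7a2 in hHKDC1 OE was at 0.575 of its null level, with means of 472 ± 101 against 821 ± 43.3 CPM (SD, n = 3). The log2 change was -0.80 (SE 0.19), with an unadjusted p of 0.0020 and an adjusted p of 0.434 in edgeR. An exact two-sided permutation test gave p = 0.1, the smallest that 3 libraries against 3 allow. DESeq2 gave an adjusted p of 0.0072, edgeR without a filter on low counts 0.012, and edgeR without replicate 2 of hHKDC1 OE 0.033. Over the 14 alternatives the adjusted p ran from 0.0072 to 0.995 and the log2 change from -0.96 to -0.65. A gene on the other strand, Gm26584, overlaps the start of Slc7a2, and had 11 to 273 counts in the liver libraries. Since the libraries keep no strand, its reads cannot be told apart from those of Slc7a2 where both lie.

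Some cell type markers moved in the same liver libraries. The summed CPM of 4 Kupffer cell markers was 80.7 to 142 in null and 143 to 279 in hHKDC1 OE, and that of 6 endothelial markers was 76.7 to 111 against 45.0 to 82.1. None of these markers was at 0 in any liver library, and their part in the Slc7a2 difference was not tested. Per 1000 counts on the 9 hepatocyte markers, Slc7a2 had 7.72, 7.33 and 6.90 counts in null and 4.96, 6.62 and 5.24 in hHKDC1 OE, so the groups were apart on that scale too, with hHKDC1 OE lower (1 of 9, against 0.599% of the genes tested). The marker counts were themselves lower in hHKDC1 OE, and on this scale 36.4% of the genes tested lay higher without overlap. Nags and Glul were among them (2 of 9). Nags had 0.49, 0.56 and 0.51 in null and 0.81, 0.74 and 0.78 in hHKDC1 OE, and Glul had 10.4, 11.1 and 11.4 against 12.6, 11.8 and 16.6. With Alb left out of the markers, a setting chosen after the data were seen, Slc7a2 was again apart in liver with hHKDC1 OE lower (1.72% of genes), Nags was apart with hHKDC1 OE higher (8.28%), and the Glul groups overlapped. In bulk tissue, fewer cells of a type and less RNA per cell cannot be told apart.

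The liver groups overlapped for both genes of glutamine handling. Glul (chr1:153899944-153909723, plus strand), glutamine synthetase, had 1168, 1232 and 1295 CPM in null and 1192, 1023 and 1175 CPM in hHKDC1 OE, with a log2 change of -0.12 (SE 0.16). Gls2 (chr10:128194457-128210004, plus strand), the liver glutaminase that frees ammonia from glutamine, had 503, 357 and 304 CPM in null and 444, 411 and 304 CPM in hHKDC1 OE. The 2 groups covered almost the same range for Gls2, and its log2 change was -0.01 (SE 0.22). The edgeR adjusted p was 0.919 for Glul and 0.998 for Gls2. Spryd4, which overlaps the end of Gls2 on the other strand, had 344 to 460 counts in liver. In fat Spryd4 had 115 to 257 counts, where Gls2 itself had 78 to 472. The glutamine synthetase pseudogene Glns-ps1, a near copy of Glul that could share its reads, had 2 to 10 counts in liver and 4 to 14 in fat.

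Across the 6 liver libraries the log2 CPM of some pairs varied together, which is given here as a description of libraries that share their depth and composition. Cps1 was most like Otc (Pearson r = 0.95), Asl most like Ass1 (r = 0.90) and Slc25a15 most like Otc (r = 0.89). The closest gene to Gls2 was Ass1 (r = 0.84) and the closest to Slc7a2 was Asl (r = 0.81). Nags and Glul had no close partner among the 9, with highest values of 0.33 and 0.30.

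In subcutaneous fat all 9 genes were lower on average in hHKDC1 OE than in null. No gene passed the adjusted threshold in edgeR (0 of 9, against 0% of the 16380 genes tested). At an unadjusted p under 0.05, 3 of 9 were lower, namely Gls2, Slc25a15 and Slc7a2 (6.39% of all genes). DESeq2 called 2 of 9 lower, Slc7a2 and Gls2 (1.22%). For Slc7a2 and Gls2 every hHKDC1 OE library lay below every null library (2 of 9, against 10.2% of all genes). The median log2 change of the 9 was -1.07, and that of all genes tested was -0.05. Without null replicate 3, the fat library with the most hepatocyte RNA, the median of the 9 was -0.50. With hHKDC1 OE replicate 1 alone, the replicate that no description calls a knockout, it was -0.52, and the log2 change of Cps1 was -0.41.

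Slc7a2 was the furthest apart in fat as well, with 47.5, 42.5 and 75.0 CPM in null and 25.4, 12.4 and 11.6 CPM in hHKDC1 OE. Its log2 change was -1.74 (SE 0.37), with an adjusted p of 0.133 in edgeR and 0.00045 in DESeq2. The adjusted p over its 14 alternatives ran from 0.00045 to 0.406, and with hHKDC1 OE replicate 1 only its change was -1.13. Gls2 had 12.5, 11.7 and 25.2 CPM in null against 9.76, 4.50 and 4.80 CPM in hHKDC1 OE. The gap between the groups was small beside the height of null replicate 3 (log2 change -1.37, SE 0.44, adjusted p = 0.192 in edgeR and 0.042 in DESeq2). Over the 14 alternatives of Gls2 the adjusted p was 0.042 to 0.496, and with hHKDC1 OE replicate 1 only its change was -0.77.

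Cps1, Otc and Ass1 shared their highest and lowest libraries in fat. Cps1 had 114, 82.5 and 205 CPM in null and 102, 29.7 and 57.3 CPM in hHKDC1 OE. Otc had 14.2, 9.12 and 26.3 CPM against 11.6, 4.64 and 6.33 CPM, and Ass1 had 98.4, 69.9 and 218 CPM against 98.1, 34.5 and 50.7 CPM. In each of the 3 genes null replicate 3 was the highest library, hHKDC1 OE replicate 2 the lowest, and hHKDC1 OE replicate 1 within the null range. Their log2 changes were -1.09 (SE 0.50), -1.14 (SE 0.49) and -1.07 (SE 0.52), with edgeR adjusted p from 0.287 to 0.325. Without null replicate 3 they were -0.68 for Cps1, -0.66 for Otc and -0.49 for Ass1.

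The other 4 genes had values nearer to 0. Slc25a15 had 27.4, 17.8 and 31.1 CPM with the null vector and 17.9, 13.1 and 18.0 CPM with hHKDC1 OE (log2 change -0.64, SE 0.26). Asl had 44.4, 45.3 and 82.1 CPM against 49.3, 30.8 and 42.3 CPM (log2 change -0.49, SE 0.29), and without null replicate 3 its change was -0.16. Nags was near the limit of detection, with 0.79, 1.67 and 4.55 CPM against 2.23, 1.17 and 1.35 CPM, and its log2 change of -0.56 (SE 0.67) rested on null replicate 3, without which it was 0.34. Glul had 1156, 1710 and 1604 CPM in null and 918, 1283 and 939 CPM in hHKDC1 OE, which overlap (log2 change -0.51, SE 0.26). The edgeR adjusted p of these 4 genes was 0.264 to 0.669.

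**Figure D2:**
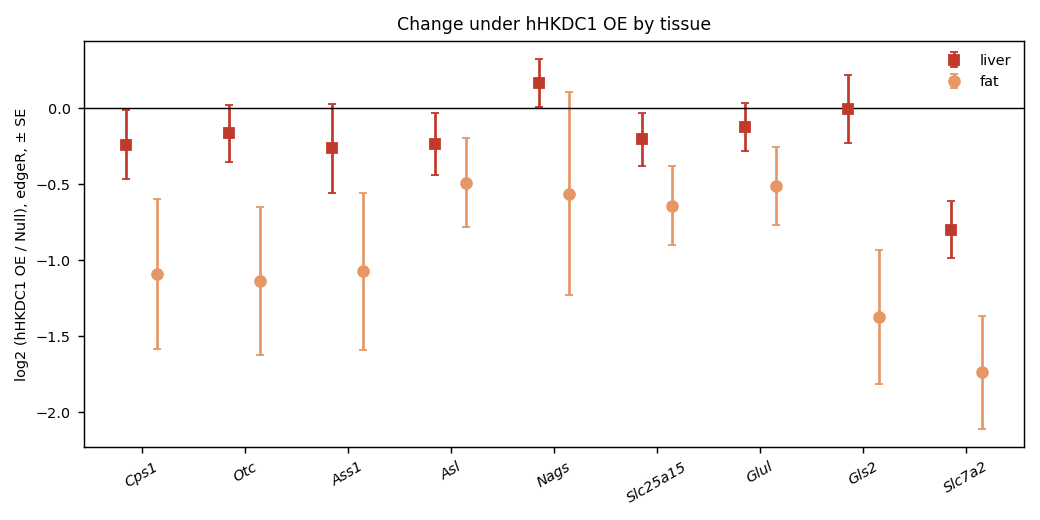
Log2 change of hHKDC1 OE against null from edgeR, with its standard error, for the 9 genes in liver (squares) and fat (circles); 0 is no change. Liver values lie between -0.80 for Slc7a2 and 0.17 for Nags, and fat values between -1.74 for Slc7a2 and -0.49 for Asl.

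The hepatocyte markers had the same highest and lowest fat libraries. Their summed CPM was highest in null replicate 3 and lowest in hHKDC1 OE replicate 2, the 2 groups did not overlap, and all 9 markers had counts above 0 in every fat library. Where this RNA came from was not tested, and in these counts hepatocyte transcripts of a gene cannot be told apart from those of the fat itself. Hepatocyte markers had a median log2 change of -1.34 in fat, beside -1.07 for the 9 genes. Markers of other cells also differed between the fat libraries. The summed CPM of 8 macrophage markers was 209 to 450 in null and 616 to 1174 in hHKDC1 OE, that of 8 B cell markers 2.19 to 3.32 against 45.0 to 784, and that of 8 T cell markers 5.89 to 16.6 against 38.8 to 551. The 8 skeletal muscle markers ranged from 623 to 26975 CPM in null and from 1188 to 17674 CPM in hHKDC1 OE. The 8 keratinocyte markers ranged from 24.7 to 369 CPM in null and from 6.16 to 45.9 CPM in hHKDC1 OE. The part of these cell types in the fat differences was not tested.

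**Figure D3:**
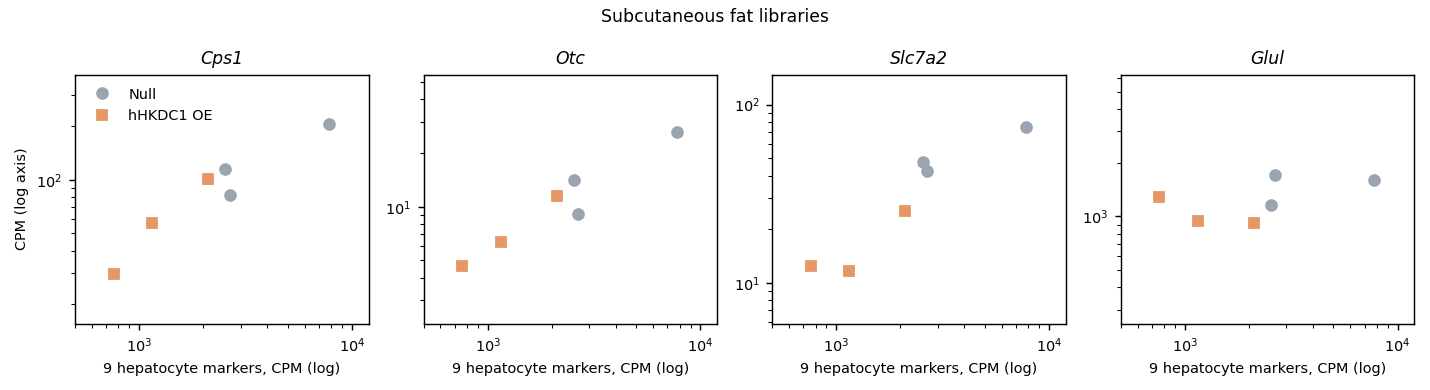
CPM of Cps1, Otc, Slc7a2 and Glul in the 6 fat libraries against the summed CPM of 9 hepatocyte markers, both on log axes, for null (circles) and hHKDC1 OE (squares). Cps1, Otc and Slc7a2 are highest in the null library with 7780 CPM of hepatocyte markers, and Glul spans a narrower range, 918 to 1710 CPM.

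The counts of the 9 genes were also set against those of the hepatocyte markers. Per 1000 counts on the 9 markers, Cps1 had a median of 42.0 counts over the 6 fat libraries and 38.6 over the 6 liver libraries, 1.09 times as many. The same ratio of fat to liver was 1.03 for Gls2, 1.18 for Otc, 1.28 for Ass1 and 1.30 for Nags, and in each of these 5 genes the fat and liver libraries overlapped. It was 2.07 for Slc7a2, 2.58 for Asl and 2.78 for Slc25a15. Among these 3 only Slc7a2 had fat libraries, at 9.64 to 18.7, that were all above liver, at 4.96 to 7.72. With Glul, 2 of 9 genes were higher in every fat library than in every liver library on this scale, where 91.2% of the 17070 genes tested in both tissues were. With Alb left out of the markers the Slc7a2 libraries of the 2 tissues overlapped, from 22.9 in fat and up to 23.3 in liver, and those of Asl no longer did (again 2 of 9, with Glul, against 91.6% of genes). Glul stood at 206 to 1687 in fat and 10.4 to 16.6 in liver, 47.2 times as high by the medians.

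On this scale the 2 fat groups overlapped for 6 of the 9 genes, Slc7a2 and Gls2 among them. Slc7a2 had 18.7, 15.97 and 9.64 counts per 1000 marker counts with the null vector, against 12.02, 16.3 and 10.1 with hHKDC1 OE. For Ass1, Asl and Nags the hHKDC1 OE libraries were all above the null libraries (3 of 9), as they were for 53.7% of the genes tested in fat, where the marker counts themselves were lower in hHKDC1 OE. Asl had 17.5, 17.0 and 10.5 in null and 23.3, 40.5 and 36.7 in hHKDC1 OE, and Ass1 had 38.6, 26.3 and 28.0 against 46.4, 45.4 and 43.9. This separation depended on Alb for Ass1 and Asl. Without Alb their fat groups overlapped, with 125, 75.7 and 73.0 against 102, 99.5 and 99.9 for Ass1 and with 56.4, 49.1 and 27.5 against 51.4, 88.9 and 83.4 for Asl, and the Nags groups were apart (1 of 9, against 28% of genes). Alb alone made up 53.1% to 69.1% of the marker counts of a library. The fat to liver ratio without Alb was 1.02 for Cps1, 1.87 for Slc7a2 and 56.3 for Glul.

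**Figure D4:**
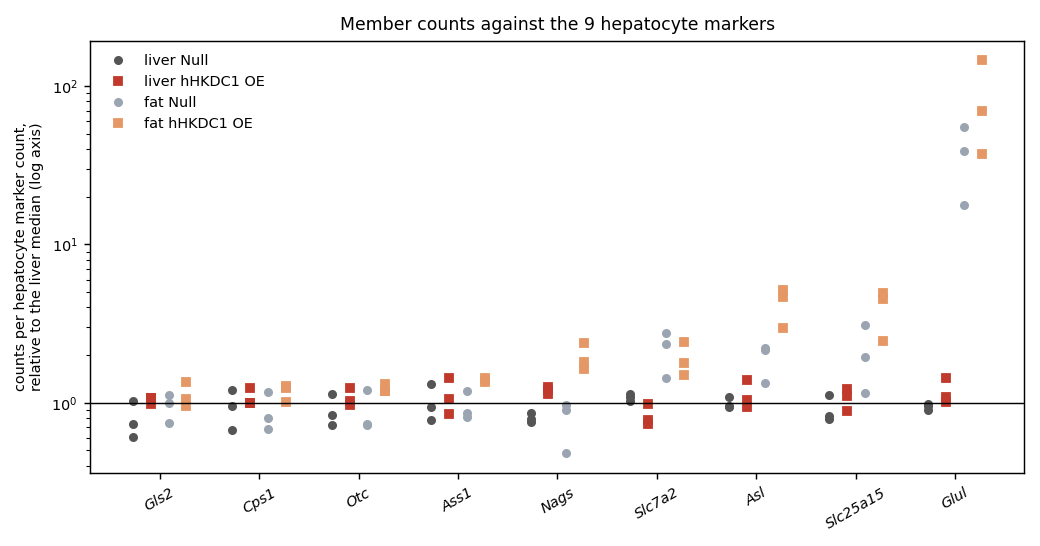
Counts of each gene per count on the 9 hepatocyte markers, divided by the median of the 6 liver libraries, on a log axis, with 1 point per library and a line at 1. Genes are ordered by the ratio of the fat median to the liver median, which runs from 1.03 for Gls2 to 47.2 for Glul.

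Between the tissues, all 9 genes were lower in null fat than in null liver at an edgeR adjusted p under 0.05, as were 30.5% of the 15259 genes tested. Cps1 was 58.5-fold lower (log2 difference -5.87, SE 0.48, edgeR adjusted p = 2.7e-05), Ass1 54.7-fold, Otc 53.8-fold, Nags 46.6-fold and Gls2 44.9-fold. Asl was 29.5-fold, Slc7a2 28.5-fold and Slc25a15 26.7-fold lower. These 8 calls held under each of 13 alternatives. The 9 hepatocyte markers had a median log2 difference of -5.65, and the first 5 of these genes were between -5.49 and -5.87. Glul differed by only -0.66 (SE 0.22, edgeR adjusted p = 0.032), 1.58-fold lower in fat. That call was kept in 5 of 13 alternatives, and with library size alone the difference turned to 0.23, a scaling under which the median gene stood at 0.98 and not at 0.09. In FPKM, which carries the authors' own scaling across the tissues, Glul had 505 ± 14.7 in null liver and 332 ± 64.9 in null fat (SD, n = 3).

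In null fat the order of the genes by FPKM therefore began with Glul. Ass1 and Cps1 followed at 39.8 ± 25.1 and 18.0 ± 8.88 FPKM, with overlapping libraries, and then Asl at 8.83 ± 3.50 FPKM, which overlapped Cps1. Slc7a2, Gls2, Slc25a15 and Otc lay between 4.48 and 2.91 FPKM on average and overlapped as neighbours, and Nags was last at 0.62 ± 0.53 FPKM. In hHKDC1 OE fat Glul was first at 226 ± 55.4 FPKM and Nags last at 0.40 ± 0.13 FPKM.

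The promoters of Otc and Glul are shown because they differ in their ratio of fat to liver per hepatocyte marker count, which was 1.18 for Otc and 47.2 for Glul. RefSeq promoter windows were at hand for 5 of the 9 genes, Otc, Ass1, Nags, Slc25a15 and Glul. Each line gives the 250 bases before the annotated start on the plus strand of GRCm38.p6, 5′ to 3′, at chrX:10252055-10252304 for Otc and chr1:153899679-153899928 for Glul.
Otc: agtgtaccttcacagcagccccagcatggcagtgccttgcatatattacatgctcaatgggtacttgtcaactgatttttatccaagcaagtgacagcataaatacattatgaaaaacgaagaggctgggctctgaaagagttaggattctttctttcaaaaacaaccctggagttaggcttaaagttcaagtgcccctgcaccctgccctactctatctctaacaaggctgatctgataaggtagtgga
Glul: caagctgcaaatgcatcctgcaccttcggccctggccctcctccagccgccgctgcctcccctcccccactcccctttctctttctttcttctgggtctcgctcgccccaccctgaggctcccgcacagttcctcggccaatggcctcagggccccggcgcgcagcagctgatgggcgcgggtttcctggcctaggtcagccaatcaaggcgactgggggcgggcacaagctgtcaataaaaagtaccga
All letters are in lower case because none of the motifs searched was found. The Otc window held 1 CG dinucleotide and was 43.6% G and C, and the Glul window held 15 and was 64.8% G and C. Ass1, with a fat to liver ratio of 1.28, held 23 and was 75.6% G and C. Nags, at a ratio of 1.30, held 11, and the Slc25a15 windows, at 2.78, held 11 and 43. The CG counts were thus not ordered as these ratios. The median over 32851 RefSeq windows of this length was 6 CG dinucleotides. Both strands were searched for the cyclic AMP response element TGACGTCA, which 1.55% of the windows hold, and for its core TGACG, which overlaps it and stands in 17.8%. The C/EBP motif TTNNGCAA stands in 9.56% of the windows and the HNF4A motif CAAAGTCCA in 0.384%. The glucocorticoid receptor half-site AGAACA stands in 16.1%. The windows of Ass1, Nags and Slc25a15 held no match either, and no match says only that these letters are not in these windows.

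Whether the change under hHKDC1 OE differed between fat and liver was tested over all 12 libraries. The difference was below 0 for all 9 genes, with a median of -0.72, where that of all genes was 0.03. The 9 hepatocyte markers had a median of -1.20 in the same test, from -1.24 to -0.92. None of the 9 passed the adjusted threshold (0 of 9 by edgeR, against 0% of the 17070 genes tested, and 0 of 9 by DESeq2). At an unadjusted p under 0.05, 1 of 9 was below 0 (3.67% of all genes). That gene was Gls2, at -1.28 (SE 0.52, unadjusted p = 0.029, edgeR adjusted p = 0.328). For Slc7a2 the difference was -0.85 (SE 0.45, edgeR adjusted p = 0.451). Leaving out 1 library at a time, the median of the 9 ran from -1.42 without fat hHKDC1 OE replicate 1 to -0.40 without fat null replicate 3, and it was -1.21 without fat null replicate 2 and -1.09 without fat null replicate 1.

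Other genes of nitrogen metabolism were followed in 6 lists, 104 genes in all. In liver 97 were tested, and 0 passed the adjusted threshold in edgeR, 10 had an unadjusted p under 0.05 (6.94% of all genes tested), and DESeq2 called 2 lower, Oat and Lhpp, where it called 0.36% of all genes lower. The median change was -0.12 for 18 tested genes that feed the cycle, -0.21 for 16 of arginine and ornithine use, -0.11 for 33 of amino acid breakdown, 0.07 for 13 regulators, 0.16 for 15 pericentral genes and -0.16 for 11 periportal genes. Furthest below 0 were Tat, tyrosine aminotransferase, with 3897, 3298 and 2352 CPM in null and 1646, 2230 and 532 CPM in hHKDC1 OE (log2 change -1.11, edgeR adjusted p = 0.650), and Nos3 (-0.91), endothelial nitric oxide synthase. Tat libraries did not overlap between the groups. Those of Nos3 did, with only 23, 49 and 39 counts in null and 9, 28 and 31 counts in hHKDC1 OE. Furthest above 0 were Asns (1.99, edgeR adjusted p = 0.606), asparagine synthetase, with 2.96, 1.17 and 4.34 CPM against 21.2, 2.77 and 9.92 CPM, and Cdh1 (1.05). Both overlapped, and none of these 4 passed the test.

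In fat 100 of these genes were tested. Of them 0 passed in edgeR, 27 had an unadjusted p under 0.05 (17.7% of all genes tested), and DESeq2 called 10 lower, where 1.22% of all genes were, and 2 higher, where 6.72% were. The 10 were Tat, Sds, Bhmt, Mat1a, Aass, Gpt2, Slc38a3, Ddah1, Foxo1 and Hsd17b13, and the 2 were Slc14a1 and Aldh18a1. In amino acid breakdown 31 of 33 genes were below 0 with a median of -1.01, near that of the 9 urea cycle and nitrogen genes, and in the periportal list 10 of 11 with a median of -0.78. The medians of the feeder, arginine and ornithine, regulator and pericentral lists were -0.51, -0.23, -0.50 and -0.40. Tat (-2.22) and Sds (-1.9998), serine dehydratase, were furthest below 0, with edgeR adjusted p of 0.186 and 0.211. Slc14a1, a urea transporter gene, was furthest above 0, with 0.85, 0.81 and 1.18 CPM in null and 7.91, 1.96 and 10.9 CPM in hHKDC1 OE (log2 change 2.86, edgeR adjusted p = 0.134), without overlap. Rnf43 followed at 1.08, with overlapping groups.

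The comparison of null tissues called 92 of 101 tested genes of these lists in edgeR, and 64.3% of all genes tested. All 11 periportal genes and 32 of 33 genes of amino acid breakdown were lower in fat, as were 15 of 19 feeders of the cycle, 13 of 15 pericentral genes, 8 of 13 regulators and 8 of 19 genes of arginine and ornithine use. Of the last list 8 others were higher in fat. Among those that were higher were Nos1 and Nos2, with 44 to 321 and 152 to 223 counts in null fat against 0 to 1 and 0 to 2 in null liver, and Nos3 (log2 difference 3.82). Among those that were lower were Slc1a2 (-6.44), a glutamate transporter gene, Cyp1a2 (-6.33), and Sp5, with 29 to 53 counts in null liver and 0 to 1 in null fat. No fold is given for Nos1, Nos2 and Sp5, because 1 tissue was near 0. In the test of the difference between tissues, 0 of 101 passed in edgeR or in DESeq2 and 6 had an unadjusted p under 0.05 (12.7% of all genes tested). Nos2, Slc14a1 and Nos1 had at most 5 counts in any liver library, so their fitted differences rest on counts near 0 and are not given, and that of Asns was -2.27.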

How the data were processed

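Per the submitters' processing notes, mapping used STAR 2.5 and counting HTSeq 0.6.1, on libraries that keep no strand. The deposited values are whole-number counts per gene that the authors did not normalize. The methods name the human genome, whereas the table holds mouse Ensembl genes, and the positions of the 9 genes equal those of GENCODE mouse release M21 (GRCm38). The FPKM values the authors deposited divide each count by gene length and by a library total that was 0.675 to 0.827 of the summed counts in liver and 1.25 to 1.52 of them in fat, so they carry a scaling across libraries. The authors' tables of fold changes and p-values were not used.

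Counts were fitted with edgeR 4.0.16 (quasi-likelihood test, TMM, filterByExpr) in R 4.3.3, within each tissue for the vector, between the null tissues, and over 12 libraries for the interaction, without the replicate number, and p-values were adjusted over all genes by Benjamini-Hochberg. An adjusted p under 0.05 was called. By the summed counts alone, before the TMM scaling, 1 CPM corresponds to 15.5 to 20.0 counts. Scaled values can lie outside this range. DESeq2 1.42.0 and the other alternatives are in the closing section. Scripts were tested on simulated counts in which 200 genes were raised or lowered by a log2 of 2. Of these edgeR recovered 77% in liver, 52.5% in fat and 45% for the interaction, with 9, 9 and 6 false calls. DESeq2 recovered 80.5%, 77.5% and 59%. Its false calls were 32 of 193 in liver, 68 of 223 in fat and 50 of 168 for the interaction. The 9 genes are named throughout, and 1 further gene that the rule covers is not reported here. Of the other lists, genes past the threshold were named, the 3 largest rises and falls where there were more than 6, and where none passed, the 2 furthest from 0 on each side. Genes that DESeq2 alone called were named after their values were seen. The genes and lists were chosen with earlier results of these data known. The symbol Tf was not matched, so 9 hepatocyte markers were used. No 2 replicates agreed within sampling noise (chi-square per gene of at least 21.8).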

Additional observations from a re-analysis of the deposited data

How the results depend on the processing

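The count of the 9 genes called in liver, 0, became 1 (Slc7a2) with DESeq2 and with no filter on low counts, and 0 to 1 when each library was left out, reaching 1 without hHKDC1 OE replicate 2. These settings called 0.674%, 1.32% and 1.07% of all genes. In fat it became 2 with DESeq2, 1 with no filter, 1 with the 12 libraries in 1 fit, and 0 to 1 when each library was left out, again reaching 1 without hHKDC1 OE replicate 2. There 7.94%, 2.69%, 5.13% and 18.9% of all genes were called, against 0% before. Between the null tissues 9 were called with DESeq2, with the replicate block and in the hHKDC1 OE libraries, and 8, without Glul, with library size alone, at least 10 counts in every library, upper-quartile normalization, or no low-count filter. Leaving out a library there gave 8 to 9. The interaction count was 0 in every alternative run. The sign of Gls2 in liver changed to 0.0068 with upper-quartile normalization, 0.058 with library size alone, 0.0019 with at least 10 counts in every library, 0.0076 with the replicate block and 0.19 with hHKDC1 OE replicate 1 only, and ran from -0.16 to 0.23 when libraries were left out. When libraries were left out, Otc in liver ran from -0.29 to 0.045, Nags in fat from -1.02 to 0.34, and the difference between tissues from -0.52 to 0.024 for Asl and from -1.25 to 0.12 for Nags. Glul between the tissues became 0.23 with library size alone. The cause of these changes was not tested. Same-numbered libraries of 2 groups correlated between -0.11 and 0.22 in their deviations from the group means, and different-numbered ones between -0.19 and 0.24. The numbers were not taken as pairs. For null liver and null fat, same-numbered values were 0.22, 0.03 and 0.14, and different-numbered ones ran from -0.18 to 0.03. Whether liver and fat libraries of a number share a mouse is not known here, and the tests across tissues treated them as independent. The replicate block changed no count of calls (0 in liver, 0 in fat, 9 between tissues, 0 for the interaction). Counts of 13 to 85 limit the precision of Nags in fat.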

Other observations

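Alb, the albumin gene, took a smaller share of the 9 hepatocyte marker counts with hHKDC1 OE in both tissues. The share was 66.8%, 62.7% and 60.8% in null liver and 53.1%, 58.0% and 53.6% in hHKDC1 OE liver. In fat it was 69.1%, 65.3% and 61.7% in null and 54.6%, 54.4% and 56.0% in hHKDC1 OE, so the groups did not overlap in either tissue.

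The ratio of Ass1 to Cps1 counts, which needs no scaling between libraries, was 0.919, 0.826 and 0.965 in null liver and 0.888, 1.19 and 0.577 in hHKDC1 OE liver. In fat it was 0.860, 0.848 and 1.06 in null and 0.966, 1.16 and 0.884 in hHKDC1 OE. Replicate 2 of hHKDC1 OE had the highest ratio of the 6 libraries in each tissue. No test was run on either ratio.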
